A study of Brassica napus with 6 samples.

Results

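The genes examined here lie in the outermost megabase of the chromosomes of Brassica napus (oilseed rape). This allotetraploid carries an A and a C subgenome. The genes were chosen by position and level alone. On each of 16 chromosomes, 8 of the A and 8 of the C subgenome, a gene was taken if it started within 1 Mb of the start of the sequence or ended within 1 Mb of the last annotated gene. It also had to average at least 1 CPM, which is the reads of a gene per 1000000 counted reads of a library, over all 6 libraries. Chromosomes A01, A07 and C06 were left out by the rule. This gave 2195 members out of 4658 genes annotated in 32 chromosome ends, and out of 43418 genes that reached the same level in the whole table. An end is called first or last by coordinate alone, so "C02 first" is the low-coordinate megabase of chromosome C02, and the length of sequence beyond the last gene is not known from these files. The sources used here do not name the genome build.

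Poly(A) RNA of cotyledons was sequenced in 6 libraries, 3 of the bnsdp1 mutant line #CR88 and 3 of the wild type (WT). Both genotypes had the same treatment, with seedlings kept on medium with 1% sucrose, in darkness for 4 days and then under normal conditions for 6 h. SDP1 encodes the lipase acting first on storage oil after germination, and the study asked how transcripts of cotyledons change when lipid metabolism is disturbed. The sources used here do not say which bnsdp1 alleles or copies the line carries. The labels leave unsaid whether each replicate was its own batch of seedlings, and p-values therefore cover just the spread among these libraries, which may be technical. As the files pair no identifier with a gene name, neither the targeted copies nor markers of the cotyledon could be checked.

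Chromosome ends carry telomeric repeats, and the stretch next to them can silence genes in some organisms, best known from budding yeast. In B. napus the distal parts of chromosomes are generally rich in genes. They are also known as the places where A and C counterparts most often exchange segments, so that expression of a whole stretch can differ between lines. The values below describe transcript levels only, and DNA copy number was not analysed here. In bulk RNA, fewer cells that express a gene and less RNA per cell cannot be told apart.

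Libraries held between 48288744 and 54965583 counts in the mutant and between 51404121 and 65550668 in WT. The members took 5.70%, 5.71% and 5.72% of the counts in mutant replicates 1, 2 and 3, and 5.79%, 5.78% and 5.69% in WT replicates 1, 2 and 3, so the ranges overlapped. Libraries of 1 genotype correlated at 0.983 to 0.992 across expressed genes and libraries of different genotype at 0.830 to 0.869 (Pearson's r of log2 CPM), where genes are not independent replicates. No pair agreed within sampling noise, with a chi-square of 6.56 or more per degree of freedom. About 70.1% to 71.4% of nonzero counts were even, as when both mates of a read pair are counted, so a count is not 1 fragment and no counting intervals are given.

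The ends differed widely in how many genes they hold and express. In the 27 ends with at least 20 members, the members numbered between 25 and 138. C02 first had 25 members of 127 annotated genes, the lowest share of these at 19.7%, and A08 last had the most members with 138 of 238. The highest share was 58.6%, in A06 last. The median member level in an end ran between 4.33 CPM in A09 first and 10.8 CPM in C04 last. Over all ends, 47.1% of annotated genes were members, against 44.1% of genes at that level in the rest of the same chromosomes, and the median levels were 7.61 and 6.96 CPM.

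The other 5 ends held few expressed genes, 35 members among 295 annotated genes in all. C07 first had 21 annotated genes and no member, although 11 of its genes had at least 1 read. C05 last had 2 members of 43 genes, A03 last 6 of 44, C02 last 9 of 119 and A05 last 18 of 68. Both ends of C02 thus had few expressed genes for the number annotated, whereas A02, the chromosome of the same number in the other subgenome, had 69 members of 135 genes in its first and 83 of 174 in its last megabase. These 5 ends are left out wherever a minimum of 20 members is stated.

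**Figure D1:**
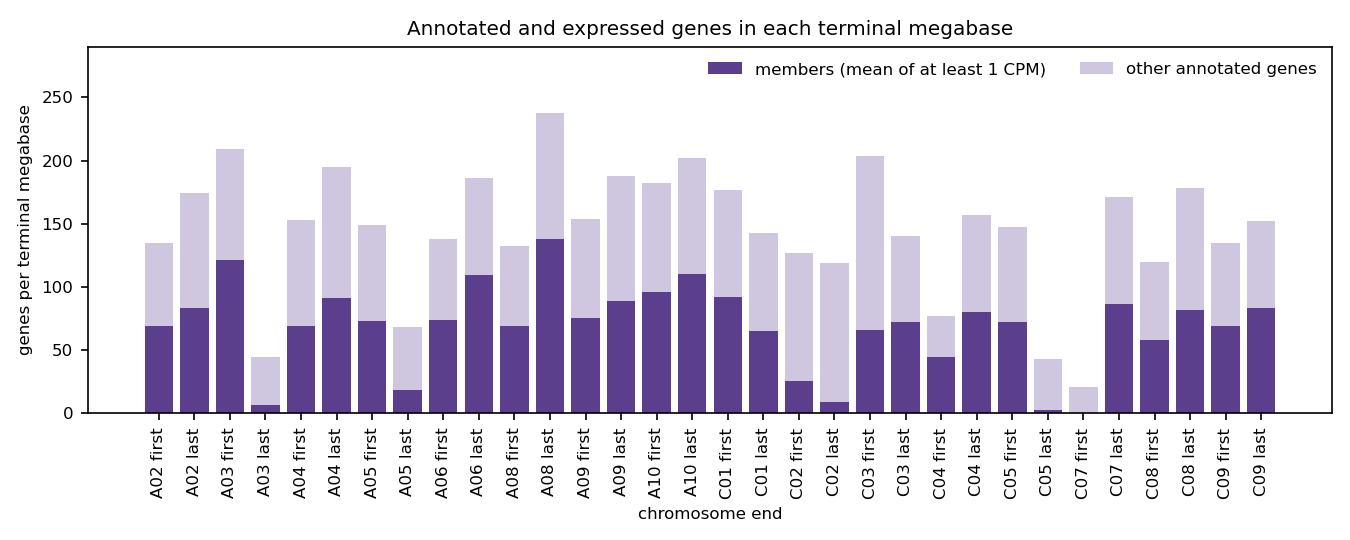
Number of annotated genes (whole bar) and of members with a mean of at least 1 CPM (dark part) in each of the 32 chromosome ends. C07 first has no member, and C02 first has 25 members of 127 genes while A02 first has 69 of 135.

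As a whole, the chromosome ends changed about as often in the mutant as the rest of the genome. Of the 2195 members, 1312 (59.8%) changed, with 707 higher and 605 lower in the mutant (edgeR, false discovery rate under 0.05 adjusted over all 56385 genes tested). Of all tested genes, which include many under the member level, 51.7% were called, and of the genes of the 19 chromosomes with a mean of at least 1 CPM 58.1% were. In this second background, 29.9% of genes were higher and 28.2% lower, against 32.2% and 27.6% of members. At least 2-fold changes were called for 192 higher and 273 lower members, or 8.75% and 12.4%, against 8.98% and 11.3% of the background. In the rest of the same 16 chromosomes 57.8% of such genes were called, 30.2% higher and 27.6% lower, with 8.99% higher and 10.9% lower by at least 2-fold. The members' shares are near those of genes at the same level and are no result about the ends. The filter acts on the mean of both genotypes, so 126 members averaged under 1 CPM in the mutant and 56 did so in WT.

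The level of an end was summarised as a shift. For each gene and library the CPM plus 0.5 was divided by the mean of the WT libraries plus 0.5, or by the mean of the other WT libraries for a WT library. The median log2 ratio over the members of an end, less the corresponding median of every expressed gene on the 19 chromosomes, is its shift in that library. Over all members together the shifts were -0.0027, 0.040 and 0.036 in mutant replicates 1, 2 and 3, and 0.0031, 0.0008 and -0.0060 in WT replicates 1, 2 and 3. Mutant replicate 1 lay within the WT range, so the groups overlapped. The mean was 0.024 ± 0.024 in the mutant and -0.0007 ± 0.0047 in WT (SD, n = 3 each), a difference of about the size of the spread between mutant libraries. The rest of the same 16 chromosomes had a mutant shift of 0.0096 ± 0.0048 (SD, n = 3).

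Most single ends stayed close to zero. Of the 27 ends with at least 20 members, 26 had a mean mutant shift within 0.15 of 0 on the log2 scale. In 11 of the 27 (40.7%) the mutant libraries lay wholly apart from the WT libraries, 6 above and 5 below. Over the whole genome, ends included, 50.7% of 740 windows of 1 Mb with at least 20 expressed genes showed the same, 25.1% above and 25.5% below. The median SD of a shift over the ends was 0.038 between mutant libraries and 0.027 between WT libraries, against 0.041 and 0.037 over the windows. The SDs of the genotypes are not like for like. A mutant library is set against all WT libraries, and a WT library against the other WT libraries only, which widens the WT spread. Without mutant replicate 1 the count was 18 of 27 ends (66.7%) against 57.4% of windows, and without WT replicate 1 it was 8 ends (29.6%) against 48.4% of windows. The count thus varied with the library left out. Leaving out a mutant library can only keep or raise it, because fewer libraries must lie apart from WT. Leaving out a WT library also changes the reference of the ratios. These counts therefore do not show how far it rests on any single library. Shifts are given as descriptions, with no p.

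**Figure D2:**
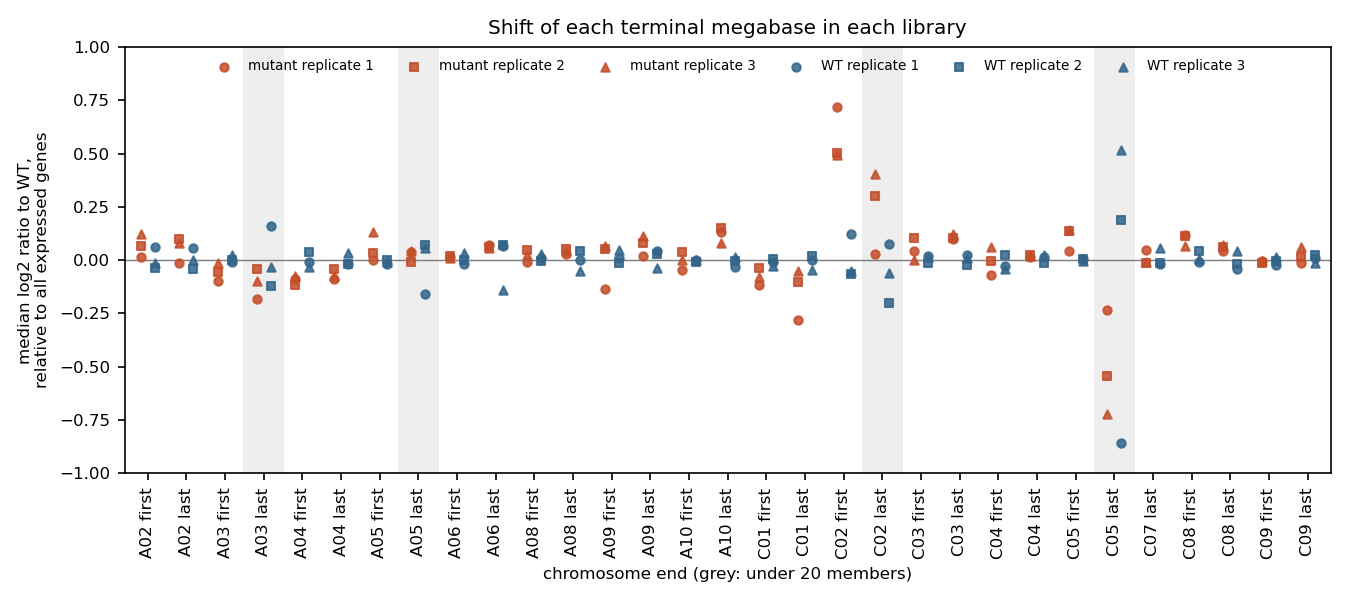
Shift of each chromosome end in each library, as the median log2 ratio to WT over its members minus that of all expressed genes, with mutant libraries in orange and WT libraries in blue. The mutant libraries of C02 first lie between 0.49 and 0.72, while all other ends with at least 20 members have a mean mutant shift within 0.15 of 0.

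C02 first stood far from the other ends with at least 20 members. Its shifts were 0.72, 0.50 and 0.49 in mutant replicates 1, 2 and 3, and 0.12, -0.066 and -0.051 in WT replicates 1, 2 and 3. All mutant libraries were above all WT libraries, and mutant replicate 1 and WT replicate 1 were each the highest of their genotype. The mean was 0.57 ± 0.13 in the mutant and 0.0018 ± 0.11 in WT (SD, n = 3 each), a 1.48-fold difference for the median member. The next highest of these ends had 0.12. C02 last, which has 9 members, had shifts of 0.028, 0.30 and 0.41 in mutant replicates 1, 2 and 3, against 0.074, -0.20 and -0.063 in WT replicates 1, 2 and 3, and the groups overlapped. Among the 740 windows C02 first had the highest mutant shift, ahead of 0.45. An end of 25 members is a small sample, and among the 131 windows with 20 to 30 genes the shifts ran between -0.51 and 0.57, with 0.31 the next highest. C02 first was singled out after the shifts were seen, so this rank is a description. The size of the shift depends on which genes are read: it was 0.33 over the first 2 Mb, and 0.057 over all genes of the end with at least 1 count, most of which lie under the member level.

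Its members rose more often than they fell. C02 first was singled out for its high median ratio, so a lean to rises comes with that choice and is no separate support. Of the 25 members, 15 rose in the mutant, 4 fell and 6 did not pass the test (edgeR, false discovery rate under 0.05). That is 76.0% called against 58.1% in the background. Of the 740 windows, which include C02 first itself, 5 had a share as high. Of the rises, 8 were at least 2-fold, and none of the falls was. Summed over members, C02 first held 456 ± 25.3 CPM in the mutant and 269 ± 14.9 CPM in WT (SD, n = 3 each), a ratio of 1.69. Of its members, 2 averaged under 1 CPM in WT and none did in the mutant. Another 15 genes of this end were tested but lay under the member level, and of these 1 rose and 3 fell.

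Most members of C02 first, and most of its rises, lay at its outer edge. Of the 25 members, 16 start below 200 kb, where only 23 genes are annotated, and the other 9 are spread among 104 genes. This boundary was chosen after the values were seen. Among the outer 16 members 11 rose, 2 fell and 3 did not pass, and their median shift was 0.81, 0.63 and 0.59 in mutant replicates 1, 2 and 3, against 0.15, -0.094 and -0.038 in WT replicates 1, 2 and 3. The inner 9 members, of which 4 rose, 2 fell and 3 did not pass, had median shifts of 0.44, 0.071 and -0.31 in the mutant libraries and 0.074, -0.020 and -0.062 in the WT libraries. By these medians the mutant libraries were apart from WT in the outer stretch and overlapped with WT in the inner one. Taken singly by CPM, 10 of the outer 16 members lay wholly above WT and 2 wholly below. Of the inner 9, 4 lay wholly above and 3 wholly below, so the inner overlap does not mean that its members were unchanged.

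Single members of C02 first show that the stretch did not move as one. The most abundant, which starts at 120392 with a span of 1485 bp, had 197, 166 and 161 CPM in mutant replicates 1, 2 and 3, and 51.7, 45.6 and 50.02 CPM in WT replicates 1, 2 and 3. It averaged 174 ± 19.6 CPM in the mutant and 49.1 ± 3.17 CPM in WT, and edgeR gave it 1.87 on the log2 scale, mutant over WT, with an SE of 0.10 (adjusted p = 2.95e-07). Its neighbour on the outer side, starting at 117111, averaged 15.9 ± 1.59 CPM in the mutant and 11.96 ± 2.15 CPM in WT, a log2 fold change of 0.45 (edgeR adjusted p = 0.016), although mutant replicate 1 was level with WT replicate 1. The neighbour on the inner side, starting at 123543, had 23.3 ± 1.02 CPM in the mutant and 24.6 ± 2.32 CPM in WT and did not pass the test. Fitted log2 fold changes in this end ran between -0.95 for the member starting at 65977 and 3.18 for the one starting at 62028, which are adjacent members. The member at 62028 had 8.78, 9.48 and 10.2 CPM in mutant replicates 1, 2 and 3, and 1.09, 1.07 and 1.07 CPM in WT replicates 1, 2 and 3, so the groups lay far apart.

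**Figure D3:**
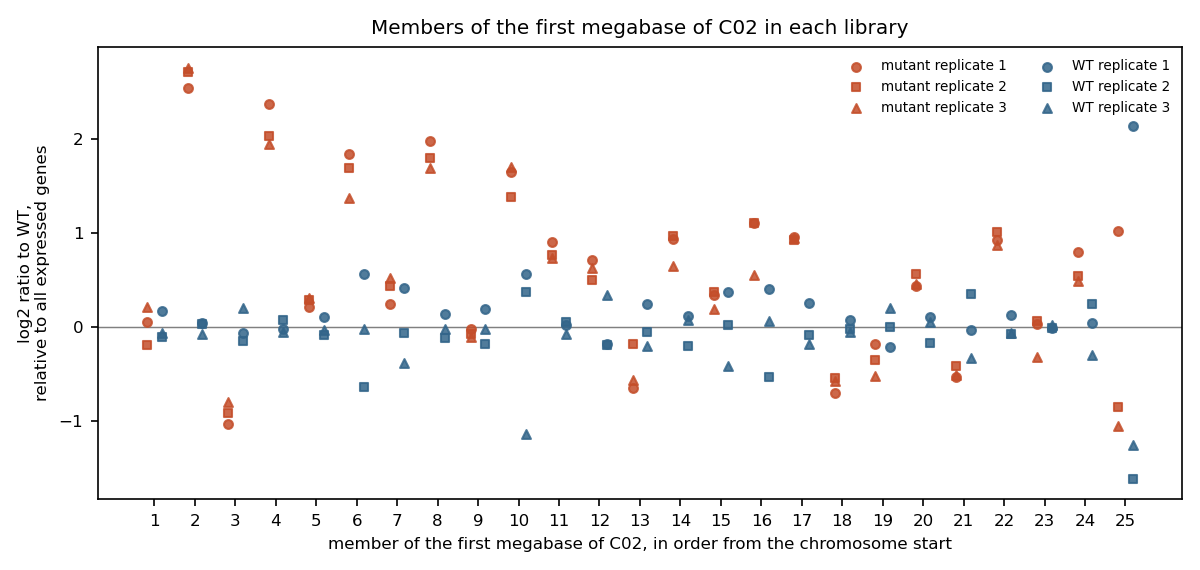
Log2 ratio to WT, relative to all expressed genes, of the 25 members of C02 first in order from the chromosome start, with mutant libraries in orange and WT libraries in blue. Several of the first 16 members reach ratios over 1 in the mutant beside others near 0 or below it, and member 25 is highest in replicate 1 of both genotypes.

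Member 25 of this end followed the replicate number rather than the genotype. It had 235, 50 and 42 reads in mutant replicates 1, 2 and 3, and 278, 38 and 47 reads in WT replicates 1, 2 and 3. Replicate 1 was high in both genotypes. Such members were rare: for replicate number 1, of all 2195 members, 1 was more than 2-fold higher and 1 more than 2-fold lower in both genotypes than in any other library.

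Further in on C02 the mutant means were smaller and still above 0. From 1 to 2 Mb the 20 expressed genes had shifts of 0.23, 0.10 and 0.024 in mutant replicates 1, 2 and 3, against 0.074, 0.078 and -0.12 in WT replicates 1, 2 and 3, and the groups overlapped. Between 2 and 3 Mb the mean was 0.20 ± 0.13 in the mutant and 0.00052 ± 0.074 in WT (SD, n = 3 each, 35 genes), and between 3 and 4 Mb it was 0.10 ± 0.12 in the mutant and -0.0065 ± 0.091 in WT (21 genes), with the groups overlapping in both windows. From 4 to 5 Mb the 29 expressed genes had shifts of 0.12, 0.16 and 0.095 in mutant replicates 1, 2 and 3, against 0.016, -0.0062 and 0.016 in WT replicates 1, 2 and 3, and the groups lay apart. Over the whole genome 25.1% of windows lay above WT in this way, and whether the rise extends along C02 was not tested. At A02 first, which has the same number and is largely collinear with C02 as known from comparisons of the subgenomes, the shifts were 0.012, 0.068 and 0.12 in mutant replicates 1, 2 and 3, and 0.062, -0.037 and -0.012 in WT replicates 1, 2 and 3. The groups overlapped at A02 first. Gene by gene correspondence was not tested here. WT replicate 1 was the highest WT library at both C02 first and A02 first.

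Smaller shifts separated the genotypes at the other ends counted above. A10 last had 0.13, 0.15 and 0.078 in mutant replicates 1, 2 and 3, and -0.032, -0.0054 and 0.013 in WT replicates 1, 2 and 3, with 44 members higher and 25 lower in the mutant among its 110. C05 first had 0.041, 0.14 and 0.14 in the mutant libraries and 0.0038, 0.0051 and -0.0037 in the WT libraries, with 28 higher and 16 lower of 72. At C05 first mutant replicate 1 was the lowest mutant library, and all 3 mutant libraries were above WT. The shares called were 62.7% at A10 last and 61.1% at C05 first, against 58.1% of genes of the 19 chromosomes with a mean of at least 1 CPM. C03 last, at 0.11 ± 0.012, C08 first, at 0.098 ± 0.028, and C08 last, at 0.059 ± 0.013, also lay above the WT libraries (mutant mean ± SD, n = 3). At C08 last the gap was very narrow, with 0.0445 in mutant replicate 1 and 0.0438 in WT replicate 3. The shift changed sign with the size of the end at C08 last, to -0.0057 at 500 kb, and at C05 first, to -0.0061 at 2 Mb. At C03 last and C08 last the sign turned for summed CPM, to -0.026 and -0.37. Without WT replicate 1 the mean was 0.078 at A10 last and 0.027 at C08 last.

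Among the 5 ends below WT, C01 last had shifts of -0.28, -0.10 and -0.053 in mutant replicates 1, 2 and 3, and -0.0019, 0.019 and -0.046 in WT replicates 1, 2 and 3. The gap was narrow, as mutant replicate 3 was just below WT replicate 3, and mutant replicate 1 was far lower than the other libraries. Of its 65 members, 41 had their lowest mutant level in replicate 1 and 40 their highest in replicate 3. Over all members these shares were 36.1% and 42.4%. By test, 20 members of C01 last rose and 23 fell, and 22 rose and 21 fell without mutant replicate 1. With all libraries 66.2% of its members were called, against 58.1% of genes of the 19 chromosomes with a mean of at least 1 CPM. C01 first, at -0.078 ± 0.041, A04 first, at -0.095 ± 0.021, A04 last, at -0.069 ± 0.025, and A03 first, at -0.057 ± 0.042, made up the rest (mutant mean ± SD, n = 3). Leaving out a single library changed some of these means, and all those given here stayed negative. Of these changes, only that at A04 last was larger than the SD between mutant libraries. Without WT replicate 3 the mean was -0.023 at A04 last and -0.021 at A03 first, and without mutant replicate 1 it was -0.078 at C01 last and -0.036 at A03 first. Without WT replicate 1 it was -0.090 at A03 first, which also turned positive at a mean of at least 5 CPM, to 0.0058, and for summed CPM, to 0.14. A04 and C01 had both ends below WT and C08 had both above it. The shifts of A04 last and C01 first were slightly positive at 500 kb and at 2 Mb, at 0.014 and 0.0088 for A04 last and 0.0088 and 0.025 for C01 first.

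A09 first was the quietest of the ends with at least 20 members. Only 23 of its 75 members changed (30.7%), 10 higher and 13 lower in the mutant, while the other ends with at least 20 members had between 45.5% and 76.0% called. A share that low was found in 15 of the 740 windows. Leaving out a mutant library moved this little: without mutant replicate 1, 2 or 3 the shares called were 29.3%, 30.7% and 30.7%. The median absolute log2 fold change was 0.28 in A09 first and 0.44 over all members. The median SD between libraries of a genotype was 0.16 on the log2 scale in A09 first, against 0.14 over all members, and its median level of 4.33 CPM was the lowest of these ends. From 1 to 2 Mb on the same chromosome 56.8% of 95 genes were called and the median absolute log2 fold change was 0.47. Shifts of A09 first were -0.13, 0.051 and 0.066 in mutant replicates 1, 2 and 3, and 0.0095, -0.013 and 0.049 in WT replicates 1, 2 and 3, and overlapped. The part that level and spread have in the low share was not tested.

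A single WT library stood apart at A06 last. The shifts were 0.072, 0.062 and 0.058 in mutant replicates 1, 2 and 3, against 0.068, 0.070 and -0.14 in WT replicates 1, 2 and 3. WT replicate 3 was thus lower than all other libraries, which lay between 0.058 and 0.072. It is part of the reference of those libraries, and without it the mean mutant shift was 0.0082. A WT range as wide occurred in 43 of the 740 windows. In 16 of the 27 ends the mutant libraries spanned a wider range than the WT libraries, against 54.1% of windows. As the references of the genotypes differ, this does not tell which genotype varied more.

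Summed levels, in which abundant genes weigh most, gave another picture. In 12 of the 27 ends the summed CPM of all mutant libraries lay above WT, in 9 below, and in 6 the groups overlapped. These are raw sums. With the median of all expressed genes subtracted, as for the shifts, the groups lay apart at 18 of the 27 ends (66.7%). The same held for 67.3% of the 740 windows, so the count is near that of the genome and no result about the ends. The ratio of mutant to WT sums ran between 0.694 in C01 first and 1.69 in C02 first. The raw sum and the median shift had opposite signs at 8 ends. With the median of all expressed genes subtracted from the sums, this was so at 9. C01 first held 2830 ± 43.1 CPM in the mutant and 4075 ± 294 CPM in WT (SD, n = 3 each). A single member accounted for most of that gap, with 106 ± 27.7 CPM in the mutant and 1143 ± 228 CPM in WT, a log2 fold change of -3.39. Without it the ratio was 0.93.

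Likewise, A02 first had a summed ratio of 0.77 although its median shift was 0.068 ± 0.056 in the mutant. A single member made up 56.9% of its WT sum, with 1309 ± 148 CPM in the mutant and 2117 ± 267 CPM in WT, and the ratio was 0.97 without it. C08 last had a ratio of 0.77 at a median shift of 0.059, and a ratio of 0.93 without 1 member that fell to 531 ± 73.2 CPM in the mutant, against 972 ± 68.4 CPM in WT. C09 first had a ratio of 0.860 that became 1.19 without 1 member. In 5 ends the member with the largest gap between genotypes held over 40% of the WT sum. At C02 first, in contrast, the ratio was still 1.28 without its most abundant member, and at A10 last 1.19 without the member that had the largest gap.

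**Figure D4:**
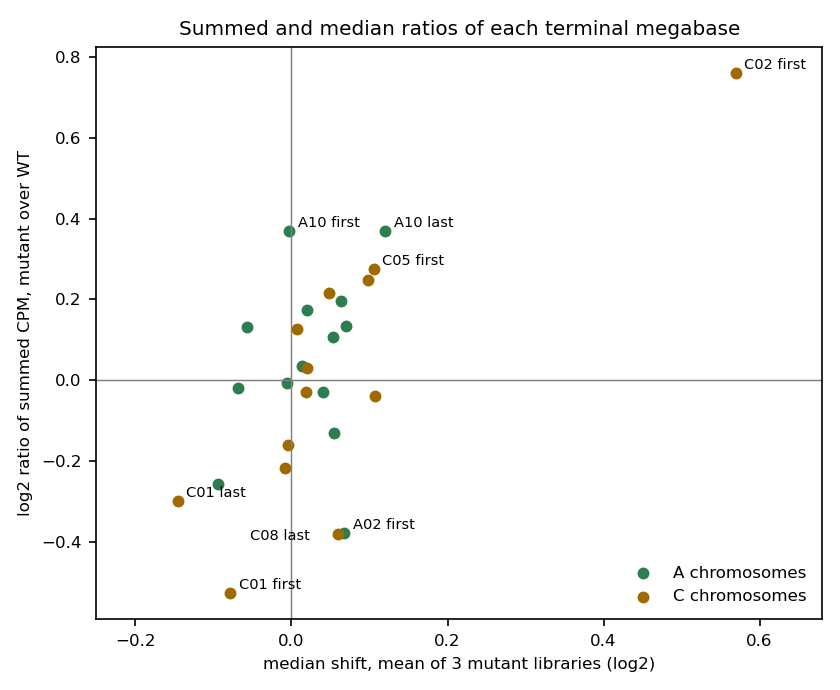
Log2 ratio of summed CPM, mutant over WT, against the mean mutant shift (median over members) of the 27 ends with at least 20 members, with A chromosomes in green and C chromosomes in brown. The sums are raw, with no median of all expressed genes subtracted. C02 first is high on both axes, while A02 first and C08 last have a summed ratio of 0.77 at a median shift slightly above 0.

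In the comparison of the subgenomes, of 3 sets of ends tried, the genotypes lay apart only when the larger ends were taken with C02 first among them. Averaged over the 31 ends with a member, A ends minus C ends gave -0.050, -0.016 and -0.0061 in mutant replicates 1, 2 and 3, and 0.058, 0.0030 and -0.034 in WT replicates 1, 2 and 3. The libraries overlapped. Some of these ends rest on few genes, and with the 27 larger ends the difference was -0.042 ± 0.019 in the mutant and 0.0020 ± 0.0070 in WT (SD, n = 3 each), with the groups apart. Without C02 first it was 0.00073 ± 0.0076 in the mutant and 0.0021 ± 0.013 in WT, and the groups overlapped. By test, 411 members of A ends rose and 347 fell, out of 1290, and 296 members of C ends rose and 258 fell, out of 905. The shares called were 58.8% on A ends and 61.2% on C ends, against 58.1% of genes of the 19 chromosomes with a mean of at least 1 CPM. Called members were higher in the mutant in 54.2% of cases on A ends and 53.4% on C ends. Both are near the 52.3% in the rest of the same 16 chromosomes.

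The same held between first and last megabases. With all 31 ends, first minus last gave 0.043, 0.047 and 0.055 in mutant replicates 1, 2 and 3, and 0.049, -0.0012 and -0.024 in WT replicates 1, 2 and 3, so that WT replicate 1 lay among the mutant libraries. Over the 27 larger ends the difference was 0.020 ± 0.0016 in the mutant and -1.1e-05 ± 0.0076 in WT (SD, n = 3 each), with the groups apart. Without C02 first the sign turned, to -0.017 ± 0.011 in the mutant against -5.8e-05 ± 0.011 in WT, and the groups overlapped. Of 1072 members of first megabases 345 rose and 301 fell, and of 1123 members of last megabases 362 rose and 304 fell. Rises made up 53.4% and 54.4% of the called members, near the 52.3% in the rest of the same 16 chromosomes.

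Shifts and shares called changed little with distance from the end. Within 250 kb of an end, 505 genes had shifts of -0.032, 0.037 and 0.065 in mutant replicates 1, 2 and 3, against -0.0039, -0.0027 and 0.011 in WT replicates 1, 2 and 3. Mutant replicate 1 was the lowest of all 6 libraries and mutant replicate 3 the highest. The genes between 1 and 2 Mb had a mean mutant shift of -0.011 ± 0.0053 and a WT shift of 0.00059 ± 0.020 (SD, n = 3 each). The share called was 60.2% within 250 kb, 61.9% between 750 and 1000 kb and 57.1% beyond 5 Mb. The 297 genes that were among the 10 outermost members of their end were called in 54.5% of cases, and the other 1898 members in 60.6%, at median levels of 6.28 and 7.92 CPM. Their mutant shifts of 0.025 ± 0.065 and 0.025 ± 0.022 (SD, n = 3) differed by less than the spread between libraries.

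**Figure D5:**
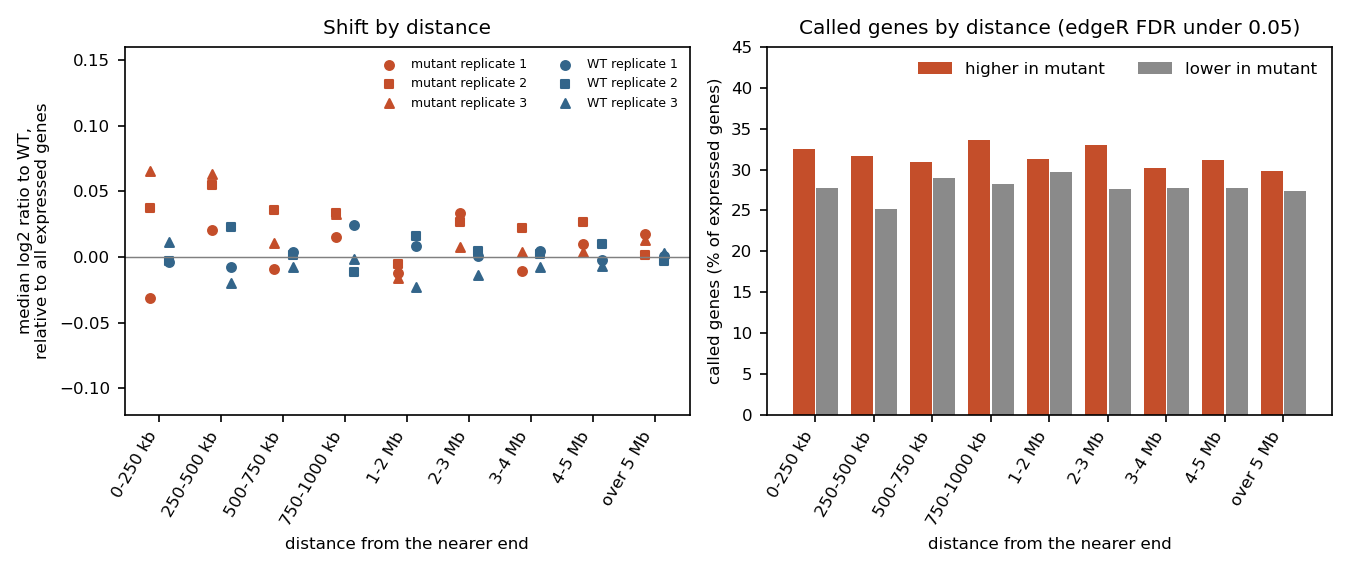
Left, shift of expressed genes of the 16 chromosomes by distance from the nearer end, per library, with mutant libraries in orange and WT libraries in blue; right, share of genes called higher (orange) or lower (grey) in the mutant. Mutant libraries spread most within 250 kb, between -0.032 and 0.065, and the share called is 60.2% there and 57.1% beyond 5 Mb.

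Neighbouring members changed in the same direction about as often as neighbours elsewhere. Of 1282 pairs of called members that followed each other within an end, 662 (51.6%) went the same way, against 52.8% of 20244 such pairs in the rest of the same chromosomes. The highest share was at C01 last, where 31 of 42 pairs (73.8%) went the same way, followed by C08 last with 29 of 44 (65.9%). At C02 first it was 10 of 18 pairs. A03 first had the lowest share of the ends with at least 20 members, 33 of 84 pairs (39.3%). These shares describe the ends, since neighbours in one end share the same libraries and region.

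The 4 members named here were chosen as the largest fitted rises and falls, so their size is a description. Each reached the mean of 1 CPM through the genotype in which it is high. BnaC01G0015600ZS (chromosome C01, 857702 to 859125, plus strand) had 54.2, 41.0 and 42.3 CPM in mutant replicates 1, 2 and 3, against 0.14, 0 and 0.16 CPM in WT replicates 1, 2 and 3. It was nearly unread in WT, with 8, 0 and 8 reads, and its fitted log2 fold change was 8.96 with an SE of 0.32 by edgeR (adjusted p = 2.36e-08). BnaC05G0014700ZS (chromosome C05, 995936 to 999213, minus strand) had 61.7, 40.4 and 51.2 CPM in the mutant libraries and 0.46, 0.18 and 0.43 CPM in the WT libraries, a log2 fold change of 7.23 with an SE of 0.24 by edgeR (adjusted p = 1.62e-08).

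The largest falls were of genes with moderate WT levels. BnaA02G0418500ZS (chromosome A02, 35854982 to 35856036, plus strand) had 0.25, 0.29 and 0.26 CPM in mutant replicates 1, 2 and 3, and 4.95, 7.02 and 18.4 CPM in WT replicates 1, 2 and 3. Its WT libraries differed among themselves, with replicate 3 the highest, and the fitted log2 difference was -5.18 with an SE of 0.55 by edgeR (adjusted p = 3.03e-05). BnaA08G0298900ZS (chromosome A08, 27356997 to 27357917, plus strand) had 0.25, 0.44 and 0.33 CPM in the mutant libraries and 10.8, 11.5 and 9.07 CPM in the WT libraries, a log2 fold change of -4.89 with an SE of 0.20 by edgeR (adjusted p = 5.73e-08). All 4 passed the test in each of 11 alternative fits, but these reuse the counts by which the genes were chosen and give no separate support. Their ends had small shifts: the mean mutant shift was -0.078 in C01 first, 0.11 in C05 first, 0.054 in A02 last and 0.040 in A08 last. The files pair none of the identifiers with a name, so nothing is said of what these genes do.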

How the data were processed

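Cotyledon RNA of 3 mutant and 3 WT libraries was measured by RNA-seq. The deposited values are raw read counts per gene for 100919 genes. The submitters' processing notes name fastp, HISAT2 and featureCounts. The sources used here do not give versions, the genome build, strand or the treatment of reads with several matches, so close copies of a gene, such as A and C counterparts, may share or lose reads. The length column equals the whole gene span in 100% of genes, per the file headers and positions. None of the identifiers matched the RefSeq table, so genes carry no names.

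From these counts, CPM used the total of each library, 48288744 to 65550668 counts. Genes were tested with edgeR 4.0.16 under R 4.3.3 (filterByExpr by genotype, TMM, quasi-likelihood F test, Benjamini-Hochberg over 56385 genes, called at a false discovery rate under 0.05). The script was checked on simulated counts with changes planted in few of the genes. In the data 51.7% of tested genes were called, so the check does not cover changes this widespread. Shifts used a pseudocount of 0.5 CPM and are descriptions. Named genes are the 2 largest fitted rises and the 2 largest falls among called members with a mean of at least 5 CPM and no overlap between genotypes. Alternatives were DESeq2 1.42.0, limma voom (limma 3.58.1), library size alone, no filter on low counts, other filters, pseudocounts, end sizes, baselines and TMM-scaled CPM, the replicate number as a block, and leaving out each library. The members and the choices of what to compare were made with earlier results of these data known. Replicates are numbered by the labels.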

Additional observations from a re-analysis of the deposited data

How the results depend on the processing

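Called members, 707 higher and 605 lower in the mutant, numbered 693 and 586 with DESeq2, 717 and 608 with limma voom, and 651 and 637 with library size alone, and without single libraries 598 to 701 higher and 535 to 584 lower. Raising the member filter to 5 CPM left 525 higher and 364 lower (59.1% of those called were higher, against 53.9%). That share was not compared with genes outside the ends at this level, so it is no result about the ends. Ends of 500 kb held 335 higher and 276 lower, and ends of 2 Mb held 1447 and 1307. In these settings fewer or more genes enter by construction. With the replicate block 698 were higher and 596 lower. Same-numbered mutant and WT libraries correlated in their deviations at 0.117, -0.013 and 0.095 for numbers 1, 2 and 3, so the numbers were not taken as a pairing. 

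The difference between first and last megabases (0.048) was 0.0596 with a pseudocount of 0.1 CPM, 0.0415 at 5 CPM, 0.0034 with all genes of at least 1 count, 0.0329 at 500 kb, -0.0055 at 2 Mb, 0.0213 with A01, A07 and C06 included and 0.0732 for summed CPM. It was 0.0197 over ends with at least 20 members, 0.0110 over all ends with a member but C02 first, and 0.0399 to 0.0704 without single libraries. The difference between A and C ends (-0.024) was -0.111 at 5 CPM, -0.0682 with the 3 chromosomes included, 0.0323 for summed CPM and 0.0141 without C02 first. The range of shifts over the ends (0.72) was 0.379 at 5 CPM, where C02 first has too few members, 0.131 with at least 1 count, 0.302 at 500 kb, 1.28 for summed CPM and 0.266 without C02 first.

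Ends with libraries apart (11) numbered 7 with at least 1 count, where 25.8% of windows were apart, 7 at 500 kb, 18 for summed CPM, where 67.3% of windows were, and 8 to 18 without single libraries. Of 400 values for single ends, 49 changed sign, at 19 ends; 38 of them were at ends whose mutant and WT libraries overlap. The other 11, at ends with libraries apart, were A03 first, 0.0058 at 5 CPM and 0.144 summed; C01 first, 0.0012 with at least 1 count, 0.0088 at 500 kb and 0.0248 at 2 Mb; A04 last, 0.0141 at 500 kb and 0.0088 at 2 Mb; C08 last, -0.0057 at 500 kb and -0.366 summed; C05 first, -0.0061 at 2 Mb; and C03 last, -0.0257 summed. The cause was not tested. The settings that drop C02 first or the small ends were chosen after seeing the data. Ends with few members rest on few reads and genes.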
